A study of Mus musculus with 12 samples.

Results

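Corticosteroid signalling was followed through 9 genes in mouse hippocampus. They were the receptor genes Nr3c1 and Nr3c2 and the response genes Sgk1, Ddit4, Fkbp5, Tsc22d3, Klf9, Zbtb16 and Cdkn1a. The 9 genes were taken by name from 15176 distinct gene names in the 3 deposited tables. Entries typed as antisense, intronic, run-on or lincRNA were set aside, and the longest locus of a name was kept. The set was picked because Sgk1 was higher with both interventions against GSK3, so the Sgk1 values of those comparisons are a description and carry no test. Of the 9 genes, 8 were listed in all 3 tables, and Cdkn1a was listed in the L803mts table.

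Poly(A)-selected, strand-specific RNA-seq libraries came from the hippocampus of C57BL/6 mice, with 4 groups of 3 libraries. Vehicle was given to control mice into the nose, at 5 µL for each nostril on alternate days over 3 days. On that schedule the siGSK3b group was given siRNA targeting GSK3β at 10 µg, and the L803mts group was given L803mts, an inhibitor of GSK3, at 60 µg. The ketamine group received 10 mg/kg intraperitoneally and was taken at 24 h. The same 3 intranasal vehicle libraries served as control in all 3 tables, so for ketamine the drug, the route and the dosing schedule cannot be told apart. Neither the age or sex of the mice nor whether a library was 1 mouse or a pool is stated in the labels, so p-values measure the spread between libraries, which may be technical. All 10 hippocampal neuron markers were listed above 0, and their summed level was 1765 to 2414 FPKM (fragments scaled to transcript length and to the size of the library) across the control libraries of the 3 tables. The libraries had medians of 8.66 to 10.2 FPKM. Counts are not kept in this unit, so the depth of sequencing is unknown. Gsk3b, the targeted gene, was at 18.4, 19.3 and 18.9 FPKM in the libraries labelled siGSK3b and at 17.96, 17.3 and 17.8 in control (limma, adjusted p = 0.938), so its mRNA level does not match that label.

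Corticosterone, the main glucocorticoid of mice, acts in the hippocampus through the mineralocorticoid receptor, which binds it with high affinity, and the glucocorticoid receptor, which is occupied when the hormone is high. Both receptors are held in chaperone complexes, move to the nucleus on binding hormone and regulate genes directly or through other factors. Several response genes also answer to other signals: Sgk1 to growth factors and osmotic stress, Ddit4 to low oxygen and energy stress, and Cdkn1a to p53.

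The receptor can bind DNA as a dimer at an inverted repeat of 2 half-sites. The RefSeq start-window table (GRCm38.p6) held windows for 7 of the 9 genes, 15 windows in all, and Nr3c1 and Zbtb16 had none there. The 250 bases upstream of each start were searched on both strands for the full element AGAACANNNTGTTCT and for its half-site AGAACA, which the full element contains on each strand. Sgk1 was the one gene of the 7 with the full element, in 1 of its 6 start windows. Across all 32851 windows of that length 3 held it, a share of 0.00913%, and their symbols were Acnat2, Gm35041 and Sgk1. A relaxed form, GNACANNNTGTNC, was in 0.387% of the windows. Half-sites lay in 3 of the 6 Sgk1 windows and 1 of the 3 Tsc22d3 windows, which is 4 of 15, against 16.1% of all windows. The Sgk1 window with the element is printed because no other searched window of these genes held it. The window of the Sgk1 start farthest downstream, 776 bases further on, is printed to show a start of the same gene without a match. Both lie on the + strand and outside annotated Sgk1 exons. Capitals mark half-sites and, in the long run of capitals, the full element at −189 to −175 from the start.
Sgk1 start 5, chr10:21993640-21993889: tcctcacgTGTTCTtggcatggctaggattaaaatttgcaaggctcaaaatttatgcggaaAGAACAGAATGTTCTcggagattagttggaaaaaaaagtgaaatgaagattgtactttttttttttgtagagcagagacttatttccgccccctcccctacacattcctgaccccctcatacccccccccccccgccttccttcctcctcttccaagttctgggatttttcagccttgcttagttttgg
Sgk1 start 6, chr10:21994416-21994665: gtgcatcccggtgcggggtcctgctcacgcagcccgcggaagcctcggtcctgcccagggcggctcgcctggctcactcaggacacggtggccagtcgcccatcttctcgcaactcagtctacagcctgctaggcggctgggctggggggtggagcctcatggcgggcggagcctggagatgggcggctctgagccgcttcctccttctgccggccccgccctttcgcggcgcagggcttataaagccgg
These matches describe letters in a window and show no binding. Bases outside the windows were not searched, so a gene without a match may carry the element elsewhere. The tables give 1 value per gene, so transcripts from different Sgk1 starts were not separated.

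**Figure D1:**
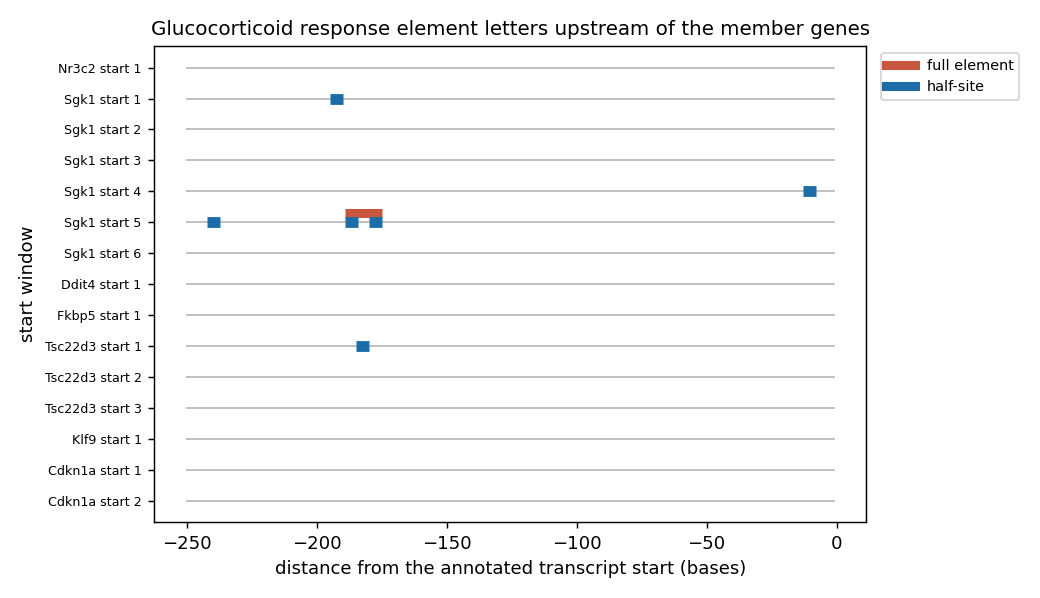
Matches to the full glucocorticoid response element (red) and its half-site (blue) in the 250 bases upstream of 15 RefSeq starts of 7 genes, by distance from the start in bases. The single full element lies in the window of Sgk1 start 5, and half-sites lie in 3 Sgk1 windows and 1 Tsc22d3 window.

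Control levels, from mice given vehicle, gave an order of the genes, read per transcript length within each table. In the siGSK3b table Klf9 had the highest control level at 101 ± 8.15 FPKM (SD, n = 3), followed by Nr3c2 at 75.7 ± 10.6 and Nr3c1 at 36.3 ± 2.79. Tsc22d3 at 28.4 ± 4.77 and Sgk1 at 23.7 ± 2.04 came next, and their library values overlapped. Fkbp5 at 13.1 ± 0.569, Zbtb16 at 10.7 ± 1.67 and Ddit4 at 4.96 ± 0.715 followed, each apart from its neighbours in all 3 control libraries. Cdkn1a, in the L803mts table, was lowest at 0.546 ± 0.150. In the L803mts table Sgk1 overlapped Zbtb16, and in the ketamine table Nr3c1 overlapped Tsc22d3 and Zbtb16 overlapped Sgk1. The place of Zbtb16 differed between tables. Its control means differed 2.21-fold, and the tables' loci for it ran from 2067 to 184731 bases. The control means of the other 7 genes in all tables differed by at most 1.19-fold. Each treatment is therefore compared with the control values of its own table, and differences between treatments were not tested.

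**Figure D2:**
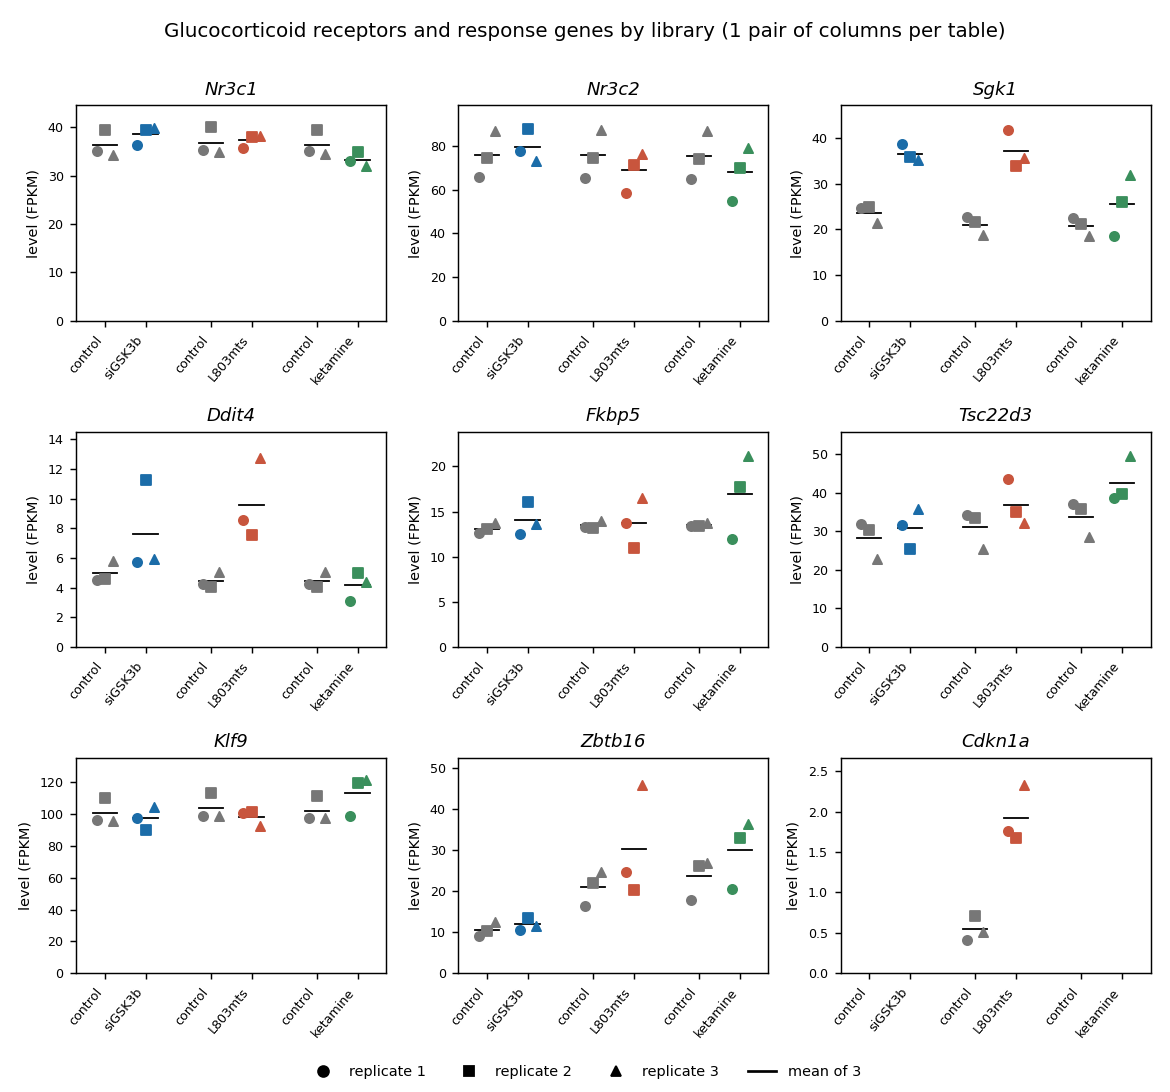
FPKM of the 9 genes in each library, in 3 pairs of columns for the siGSK3b, L803mts and ketamine tables, with control in grey, marker shape for the replicate number and a bar at the mean of 3. Sgk1 lies above all control libraries with siGSK3b and L803mts, Ddit4 and Cdkn1a do so with L803mts, and Tsc22d3 does so with ketamine.

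Neither receptor gene differed detectably from control in any comparison by limma on log2(FPKM + 1), with Benjamini-Hochberg adjustment over all tested loci of the table. Nr3c1, which encodes the glucocorticoid receptor (chr18:39570390-39648660 in the siGSK3b table, mouse build NCBIM37 as in the files), was at 35.1, 39.5 and 34.3 FPKM in control and at 36.4, 39.6 and 39.9 with siGSK3b. With ketamine the levels were 33.1, 34.8 and 32.0 FPKM, beside 35.1, 39.4 and 34.5 in that table's control. The groups overlapped in both tables, although the siGSK3b mean lay above control and the ketamine mean below it. The Nr3c1 differences in log2(FPKM + 1), treated minus control, were 0.09 ± 0.09 (SE) with siGSK3b, 0.02 ± 0.10 with L803mts and −0.12 ± 0.09 with ketamine (limma, adjusted p = 0.940, 0.964 and 0.886).

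Nr3c2, which encodes the mineralocorticoid receptor (chr8:79424112-79768812), was at 65.6, 74.6 and 86.8 FPKM in control and at 77.9, 87.9 and 73.2 with siGSK3b. Against nearly the same control values it was at 58.7, 71.4 and 76.5 FPKM with L803mts and at 54.8, 69.7 and 79.3 with ketamine. The control libraries themselves spanned most of this range, and every treated group overlapped them. Nr3c2 differences were 0.08 ± 0.12, −0.14 ± 0.14 and −0.15 ± 0.16 in that order (limma, adjusted p = 0.965, 0.818 and 0.922). The balance of both receptors, as the ratio of Nr3c2 to Nr3c1 FPKM, was 2.10 ± 0.376 in control and 2.07 ± 0.204 with siGSK3b (SD, n = 3, two-sided exact permutation test, p = 0.9). It was 2.07 ± 0.373 in control and 1.84 ± 0.182 with L803mts (n = 3, exact permutation p = 0.6), and 2.08 ± 0.376 and 2.05 ± 0.414 with ketamine (n = 3, exact permutation p = 0.9). With 3 libraries a group the smallest p this test can give is 0.1. A separate entry under the Nr3c1 name, typed as antisense and set aside by the choice of loci, was at 7.57, 7.52 and 6.52 FPKM in control and at 5.31, 6.33 and 5.63 with L803mts. It was lower in all 3 treated libraries, and its FDR in the authors' deposited table was 0.951.

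Sgk1 encodes a serine/threonine kinase that is activated downstream of PI3K and mTORC2, acts on ion channels and transporters, and shares substrates with AKT. Its locus spanned chr10:21602096-21719598 in the siGSK3b table. Sgk1 was at 24.7, 24.9 and 21.3 FPKM in control and at 38.7, 35.8 and 35.1 in the libraries labelled siGSK3b. In the L803mts table it was at 22.7, 21.5 and 18.9 FPKM in control and at 41.7, 33.8 and 35.7 with the inhibitor. All 6 treated libraries lay above all control libraries of their table. The means were 1.54 and 1.76 times control, differences of 0.61 ± 0.10 and 0.79 ± 0.13 (SE) in log2(FPKM + 1). The authors' deposited tables give Sgk1 log2 fold changes of 0.63 and 0.82, both at the smallest FDR of their table, 0.0126 and 0.0119. With L803mts Ddit4, Hsp90ab1, Arc and Egr1 have that same smallest FDR, so it does not rank Sgk1 above them. Sgk1 was 1 of 19 names called higher in both tables, among them the choroid plexus markers Ttr, Folr1, Kl and Otx2. The Sgk1 values given here are those the gene set was picked on, and both comparisons use the same control libraries. Leaving out any 1 library kept the differences between 0.54 and 0.65 with siGSK3b and between 0.70 and 0.85 with L803mts. These ranges describe the picked values and are no test of them.

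The ketamine libraries did not share a level of Sgk1. The gene was at 18.6, 26.1 and 31.9 FPKM in ketamine replicates 1, 2 and 3, against 22.5, 21.1 and 18.6 in control. Ketamine replicate 1 lay just below the lowest control library and the other two libraries lay above all of them, so the group fell on both sides of control. The difference was 0.26 ± 0.19 (SE), which did not pass (2 of 3 libraries higher; limma, adjusted p = 0.888). It was 0.08 without ketamine replicate 3 and 0.46 without ketamine replicate 1. The authors' deposited table gives 0.30 with an FDR of 0.761.

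Ddit4 encodes REDD1, a stress-induced inhibitor of mTORC1 that glucocorticoids raise in brain and muscle. It was at 4.27, 4.06 and 5.07 FPKM in control and at 8.57, 7.52 and 12.7 with L803mts (chr10:59412940-59414135). Every L803mts library was above every control library, by a mean ratio of 2.15. The difference was 0.93 ± 0.20 (SE, higher in 3 of 3 libraries), with an unadjusted limma p of 0.0015 that did not pass adjustment over the table (adjusted p = 0.757). It did pass in the authors' deposited table, at a log2 fold change of 1.10 and an FDR of 0.0119.

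With siGSK3b, Ddit4 levels were 5.73, 11.3 and 5.91 FPKM, beside control levels of 4.54, 4.56 and 5.79. SiGSK3b replicate 2 stood apart at 11.3, and the other two libraries lay close to the highest control library. The difference was 0.48 ± 0.25 (limma, adjusted p = 0.886), and it was 0.20 without siGSK3b replicate 2. With ketamine Ddit4 levels of 3.11, 5.01 and 4.38 FPKM faced control levels of 4.23, 4.07 and 5.07, a difference of −0.09 ± 0.18 (limma, adjusted p = 0.963). The ketamine libraries lay on both sides of the control libraries.

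Cdkn1a encodes the cell cycle inhibitor p21. It was listed in the L803mts table alone, where its locus was short, chr17:29235701-29236767. It was at 0.413, 0.708 and 0.517 FPKM in control and at 1.76, 1.67 and 2.32 with L803mts. The lowest treated library was more than 2 times the highest control library, at levels below 3 FPKM throughout. Cdkn1a is listed only where its treated group is high, so its separation from control and its p-value are descriptions. The difference was 0.91 ± 0.19 on the log2(FPKM + 1) scale, which understates the change of low genes (3 of 3 libraries higher; limma, adjusted p = 0.757). The authors' deposited table gives a log2 fold change of 1.81 and an FDR of 0.469.

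The other 4 response genes are widely used markers of glucocorticoid action in brain, and none of them passed in any comparison. Fkbp5 (chr17:28536060-28578901 in the siGSK3b table) encodes a co-chaperone that lowers the hormone affinity of the receptor. It was at 12.6, 13.0 and 13.7 FPKM in control and at 12.5, 16.0 and 13.6 with siGSK3b. With ketamine the levels were 12, 17.7 and 21.2 FPKM, beside 13.5, 13.4 and 13.8 in control. The Fkbp5 control libraries were close together, and ketamine replicate 1 lay below them while ketamine replicates 2 and 3 lay above. The differences were 0.09 ± 0.12 with siGSK3b, 0.01 ± 0.16 with L803mts and 0.27 ± 0.19 with ketamine (limma, adjusted p = 0.961, 0.991 and 0.880).

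Tsc22d3 encodes GILZ, a leucine zipper protein that mediates anti-inflammatory effects of glucocorticoids. Its ketamine libraries held 38.8, 39.8 and 49.5 FPKM, and its control libraries 37.2, 35.8 and 28.4 (chrX:137074186-137083133). All ketamine libraries lay above all control libraries, replicate 1 by a small step. The difference was 0.33 ± 0.14 (unadjusted p = 0.0444, limma, adjusted p = 0.803, higher in 3 of 3 libraries). With siGSK3b it was 0.13 ± 0.16 and with L803mts 0.24 ± 0.16, and these groups overlapped control (limma, adjusted p = 0.959 and 0.757).

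Klf9 (chr19:23216196-23242611 in the siGSK3b table), a zinc finger transcription factor gene, had the highest level of the 9. It was at 97.7, 111 and 97.6 FPKM in control and at 99.1, 119 and 121 with ketamine. Ketamine replicate 1 lay within the control range, and ketamine replicates 2 and 3 lay above it. Its differences were −0.05 ± 0.09 with siGSK3b, −0.07 ± 0.10 with L803mts and 0.14 ± 0.10 with ketamine (limma, adjusted p = 0.976, 0.858 and 0.886). Zbtb16 (chr9:48460688-48645419 in the L803mts table) encodes the transcriptional repressor PLZF. With L803mts the levels were 24.8, 20.4 and 45.9 FPKM, beside 16.4, 22.0 and 24.6 in control. L803mts replicate 3 alone stood far above control. The Zbtb16 difference was 0.45 ± 0.28 and fell to 0.11 without that library (limma, adjusted p = 0.757 with all libraries). The authors' deposited table gives it a log2 fold change of 0.53 and an FDR of 0.104. With siGSK3b and ketamine Zbtb16 differed from control by 0.15 ± 0.15 and 0.31 ± 0.24 (limma, adjusted p = 0.938 and 0.893).

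**Figure D3:**
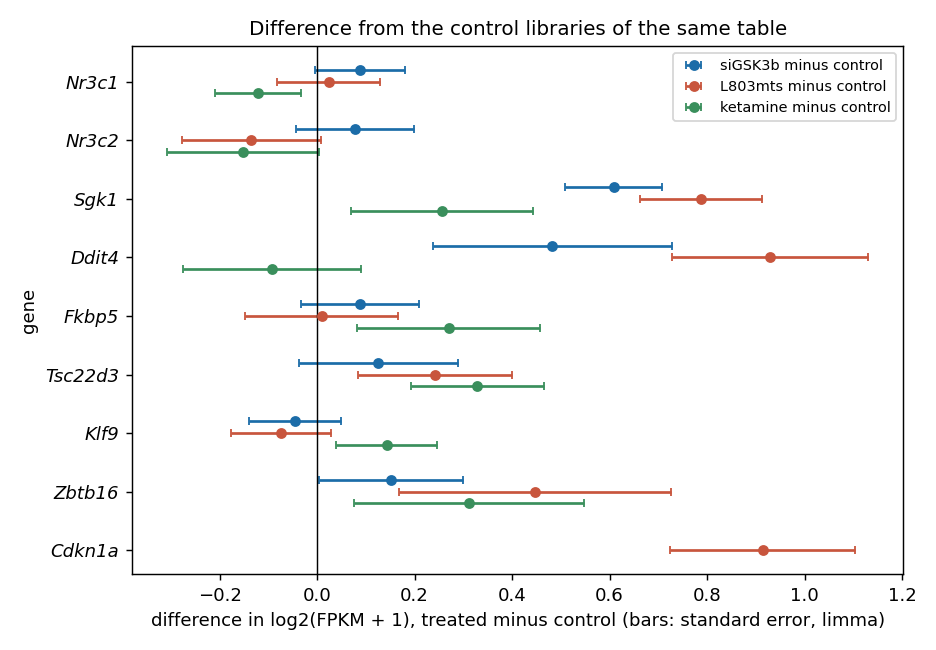
Difference from the control libraries of the same table in log2(FPKM + 1) for each gene and treatment, with bars of 1 standard error from limma (n = 3 per group). Sgk1 with siGSK3b and L803mts, and Ddit4 and Cdkn1a with L803mts, lie farthest from 0. The other points lie within 0.5 of 0.

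Sgk1 was picked on the siGSK3b and L803mts values, and Cdkn1a was listed only in the table where its treated group is high, so counts over the set are given for the 7 genes other than these. With siGSK3b 0 of 7 had treated libraries all above control, against 5.72% of all tested loci in that comparison. With L803mts 1 of 7 did, Ddit4, against 5.86% of all loci, and with ketamine 1 of 7 did, Tsc22d3, against 5.28%. None of the 7 was lower in all treated libraries, as 4.84%, 6.67% and 6.19% of all loci were. By limma 0 of the 7 passed in each comparison, where 0.00612%, 0% and 0.0114% of all loci passed. At an unadjusted p under 0.05 limma counted 0 of 7 with siGSK3b, 1 of 7 with L803mts (Ddit4) and 1 of 7 with ketamine (Tsc22d3), against 5.83%, 6.18% and 6.13% of all loci. The authors' deposited tables called 0 of 7, 1 of 7 (Ddit4) and 0 of 7, where 0.508%, 0.65% and 0.439% of all loci were called. Treated means lay above control for 6 of 7, 5 of 7 and 4 of 7 genes, against 51.8%, 46% and 46.5% of all loci. The median difference of the 7 was 0.09, 0.02 and 0.14 in log2(FPKM + 1), and over all loci it was 0.01, −0.02 and −0.01.

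Libraries of 1 treatment also differed among themselves. Among 6 response genes listed in every table (Sgk1, Ddit4, Fkbp5, Tsc22d3, Klf9 and Zbtb16), the median difference from the control mean was −0.16, 0.28 and 0.57 in ketamine replicates 1, 2 and 3. Ketamine replicate 1 was the lowest ketamine library for 7 of 8 genes, all but Nr3c1, while it was the lowest for 39.1% of all loci. Ketamine replicate 3 was the highest for 6 of 8, all but Nr3c1 and Ddit4, against 35.0% of all loci. In ketamine replicate 3 5 of the 6 response genes were thus above control while the receptor gene Nr3c1 was at its lowest of the 3 libraries.

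The L803mts libraries had medians of 0.37, 0.08 and 0.51 over the same 6 genes, and replicate 3 was the highest for 6 of 9 genes against 36.5% of all loci. The siGSK3b libraries had medians of 0.08, 0.30 and 0.17, and replicate 2 was the highest for 4 of 8 genes against 35.0%. The medians of both groups include Sgk1, on whose values here the set was picked, so they are descriptions. The 6 of 9 genes include Cdkn1a, listed only where its treated group is high. In each of these groups Sgk1 was above the control mean in all 3 libraries, while the library with the highest Ddit4 was not the one with the highest Sgk1.

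**Figure D4:**
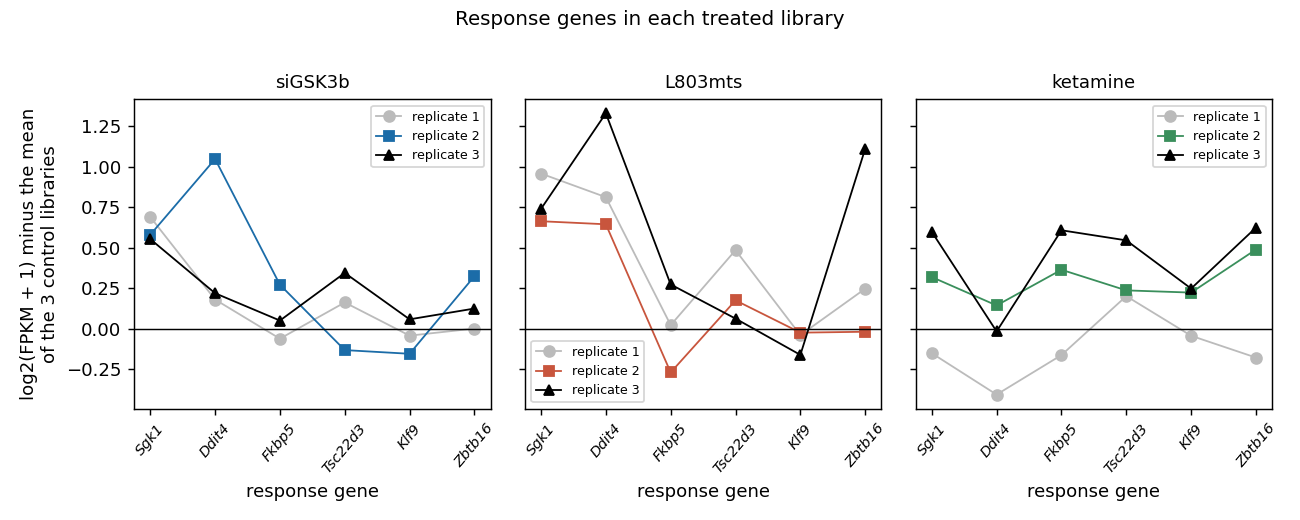
Difference of each treated library from the control mean of its table in log2(FPKM + 1), for 6 response genes, with 1 line per library. In the ketamine panel replicate 1 lies at or below 0 for 5 of the 6 genes and replicate 3 above 0 for 5. In the siGSK3b and L803mts panels Sgk1, picked on these values, is above 0 in all 3 libraries.

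Levels most like those of Sgk1 were sought over 18 library values, 6 libraries in each of 3 tables, each taken from the control mean of its table. The 3 control libraries enter once per table, so these values are not independent, and Pearson's r is given as a description among 11807 genes. They include the Sgk1 values with siGSK3b and L803mts on which the set was picked. Genes close to Sgk1 are thus likely to be high there by this choice, and their levels and ranks are descriptions. The closest were Col11a1 (r = 0.85), Gm13410 (0.83), Nid2 (0.82), Plekhf1 (0.81) and Irak1 (0.80), and none of these was called in the authors' deposited tables. Nid2, which encodes a basement membrane protein, was at 0.831 ± 0.0941 FPKM in control and 2.97 ± 1.38 with siGSK3b (SD, n = 3). Plekhf1 is itself on the list of other glucocorticoid response genes, and it was at 1.55 ± 0.0869 FPKM in control and 2.69 ± 0.596 with L803mts. Of the other members, Ddit4 had r = 0.70 and rank 63, and Tsc22d3 had r = 0.58 and rank 295. Fkbp5 (0.29), Nr3c1 (0.22), Klf9 (−0.03) and Nr3c2 (−0.10) were farther off, and Zbtb16 lay between at 0.43.

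The wider list of 30 other glucocorticoid response genes had 25 measured with siGSK3b, 25 with L803mts and 27 with ketamine. By limma and by the authors' deposited FDR 0 of them passed in any comparison, and limma counted 2 of 25, 1 of 25 and 4 of 27 at an unadjusted p under 0.05, against 5.83%, 6.18% and 6.13% of all loci. Mean log2(FPKM + 1) lay above control for 12 of 25, 17 of 25 and 18 of 27. By mean FPKM, a different measure, 51.8%, 46% and 46.5% of all loci lay above control. Fam107a, the most abundant of the list in control and an actin-associated stress gene, was at 137, 128 and 137 FPKM in control and at 117, 113 and 115 with siGSK3b. These groups did not overlap, and the difference of −0.22 ± 0.07 did not pass (limma, adjusted p = 0.843). Dusp1, a MAP kinase phosphatase gene chosen here with its values in view, was at 3.29, 3.61 and 3.04 FPKM in control and at 1.06, 2.21 and 1.05 with ketamine. It was lower in all 3 ketamine libraries, by 0.85 ± 0.21 (limma, adjusted p = 0.607). Of the 4 genes of this list at an unadjusted limma p under 0.05 with ketamine, 3 were higher than control and 1 was lower.

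Genes that hold or assist the receptor were measured for 15, 15 and 13 of 16 listed. Of these 1 was called in the authors' deposited tables and 0 by limma. At an unadjusted limma p under 0.05 there were 1, 0 and 0, against 5.83%, 6.18% and 6.13% of all loci. The authors' deposited table called 0.65% of all loci with L803mts. The called gene was Hsp90ab1, which encodes a form of the HSP90 chaperone of the receptor, with L803mts. It was at 339, 327 and 384 FPKM in control and at 441, 380 and 778 with L803mts. L803mts replicate 3 stood apart, replicate 2 lay within the control range, and the difference was 0.54 ± 0.24 (limma, adjusted p = 0.757) against 0.61 and an FDR of 0.0119 in the authors' deposited table.

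Of 12 genes of steroid metabolism and stress peptides 7 were measured in each table and 0 passed by either test. At an unadjusted limma p under 0.05 there were 1, 0 and 2, against 5.83%, 6.18% and 6.13% of all loci. Hsd11b1, whose enzyme regenerates active glucocorticoid inside cells, was at 17.0, 20.2 and 21.0 FPKM in control and at 14.9, 13.9 and 16.4 with ketamine. Every ketamine library was below every control library, and the difference of −0.34 ± 0.12 did not pass (limma, adjusted p = 0.765). With siGSK3b and L803mts the Hsd11b1 groups overlapped control.

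Of 14 genes of the SGK family, its regulators and its substrates 13 were measured in each table and 0 passed by either test. At an unadjusted limma p under 0.05 there were 2, 2 and 0, against 5.83%, 6.18% and 6.13% of all loci. Ndrg2, a known SGK1 target in other cells and the most abundant of the list, was at 235 ± 21.2 FPKM in control and 251 ± 8.41 with siGSK3b (SD, n = 3; limma, adjusted p = 0.937). Sgk3 and Mapkap1 were chosen with their values in view. Sgk3, a paralog of Sgk1, was at 32.4, 17.7 and 31.1 FPKM in control and at 39.6, 43.5 and 35.7 with siGSK3b. Mapkap1, which encodes an mTORC2 subunit, was at 4.37, 4.95 and 5.93 FPKM in control and at 7.50, 7.57 and 8.83 with siGSK3b. Both genes were higher in all 3 siGSK3b libraries, and neither passed (limma, adjusted p = 0.848 and 0.735).

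Markers of other cells and of neuronal activity moved with some of these values. In bulk tissue, fewer cells of a type and less RNA per cell cannot be told apart. The 10 choroid plexus markers summed to 4659, 353 and 118 FPKM in control replicates 1, 2 and 3 and to 4680, 6098 and 4182 with siGSK3b. In the L803mts table they summed to 3164, 267 and 100 FPKM in control and to 1920, 3195 and 2940 with L803mts. Mean log2(FPKM + 1) lay above control for all tested markers of this list in each table. The authors' deposited tables called 6, 4 and 0 of them higher with siGSK3b, L803mts and ketamine, and limma called 0. Of all loci they called 0.508%, 0.65% and 0.439%. In the ketamine table the sums were 3598, 323 and 142 FPKM in control and 3224, 2838 and 476 with ketamine. Control replicate 1 lay within the range of the treated sums in the siGSK3b and L803mts tables and above that range in the ketamine table. Control replicate 3 had the lowest sum and the lowest Sgk1 level of the control libraries in each table. Among the ketamine libraries the lowest sum and the highest Sgk1 level were both in replicate 3.

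Oligodendrocytes express Sgk1 under glucocorticoids, and the 10 oligodendrocyte markers were mostly below control. Mean log2(FPKM + 1) was below control for 10 of 10, 9 of 10 and 9 of 10 markers with siGSK3b, L803mts and ketamine. By mean FPKM, 51.8%, 46% and 46.5% of all loci lay above control. Their sums were 1536 to 1823 FPKM in control and 1378 to 1606 with siGSK3b, and 1467 to 1747 in control and 1415 to 1533 with L803mts. With ketamine they were 772 to 830 FPKM against 890 to 975 in control, without overlap. By the authors' deposited FDR 1 of these markers was lower with siGSK3b and 0 with the other treatments, and limma called 0. That FDR called 0.508%, 0.65% and 0.439% of all loci.

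Immediate early genes, which neurons raise within minutes of activity, followed the libraries as well. With L803mts they summed to 66.4, 52.7 and 93.7 FPKM against 42.1, 45.0 and 52.7 in control, highest in L803mts replicate 3, the library with the highest Ddit4 and Zbtb16. The authors' deposited table called 3 of 8 higher there, Nr4a1, Arc and Egr1. With ketamine they summed to 55.8, 38.7 and 27.3 FPKM against 56.8, 54.7 and 64.1 in control, lowest in ketamine replicate 3, the library with the highest Sgk1, Fkbp5 and Tsc22d3. The authors' deposited table called 3 of 9 lower there, Btg2, Npas4 and Fos, and with siGSK3b it called 0 of 8. By limma 0 immediate early genes passed in any comparison, with 1 of 8, 4 of 8 and 5 of 9 at an unadjusted p under 0.05, against 5.83%, 6.18% and 6.13% of all loci. The authors' deposited FDR called 0.508%, 0.65% and 0.439% of all loci. The part of these markers in the values of the receptor and response genes was not tested.

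**Figure D5:**
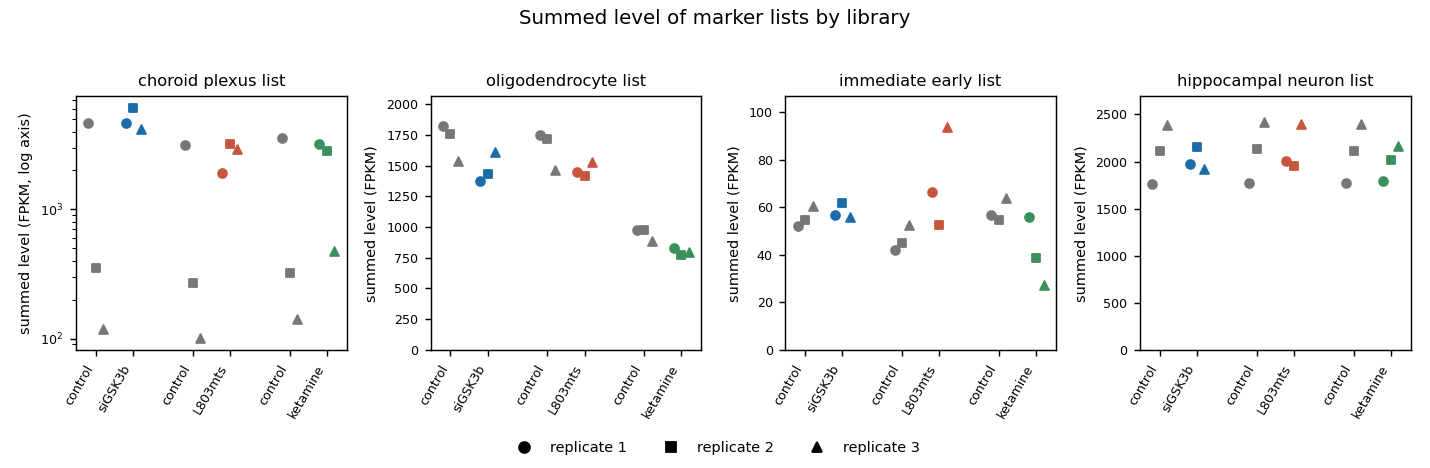
Summed FPKM of the choroid plexus, oligodendrocyte, immediate early and hippocampal neuron lists in each library, with marker shape for the replicate number and a log axis for choroid plexus. Choroid plexus sums range from 100 to 6098 FPKM and are high in control replicate 1, and immediate early sums are lowest in ketamine replicate 3 and highest in L803mts replicate 3.

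Other marker lists had few calls. Among endothelial, astrocyte, microglia and hippocampal neuron markers, the authors' deposited tables called 1 endothelial gene higher with L803mts and no other, and limma called 0. Median differences of these lists lay between −0.20 and 0.07. Of 9, 9 and 8 measured meningeal fibroblast markers the authors' deposited tables called 1, 3 and 1 higher with siGSK3b, L803mts and ketamine. Of 7 measured striatal neuron markers they called 1 higher and 1 lower with siGSK3b and 3 higher with L803mts. Over all loci they called 0.508%, 0.65% and 0.439% with siGSK3b, L803mts and ketamine. With L803mts all 7 striatal markers had a mean log2(FPKM + 1) above control. They summed there to 136, 61.4 and 65.7 FPKM against 53.7, 42.3 and 45.3 in control, without overlap. L803mts replicate 1, the highest, was also the L803mts library with the highest Sgk1 and Tsc22d3, and the part of these markers in those values was not tested. No listed marker was at 0 in every library.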

How the data were processed

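The authors deposited 3 tables, each with 1 treatment and the same 3 control libraries. Per the file headers each locus has FPKM values (libraries, then groups), the p-value and FDR of the comparison, and a fold change in log2 units. The deposited fold change column was read as a score, because 1, 0 and 3 of its values lie beyond 100 and 34, 38 and 30 are text. TopHat2 2.0.9, Cufflinks and Cuffdiff are named in the submitters' processing notes, with the builds GRCh37 and NCBIM37 but no role for them. The largest chromosome 7 coordinate (152125580) lies past the last GRCm38 gene end (145324086), so loci are given on NCBIM37 as deposited. The tables were normalised separately and tested separately.

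Within each table log2(FPKM + 1) was modelled with limma 3.58.1 in R 4.3.3 (trend on mean level), using its 6 libraries and 16351, 17074 and 17545 loci with a deposited p below 1 (siGSK3b, L803mts, ketamine). P-values were adjusted by Benjamini-Hochberg over the table, with a threshold of 0.05, and the script was tested on simulated data. Groups came from the library titles. Only 25, 27 and 23 loci were at 0 in 4 of 6 libraries, too few to recover single-read steps, so no interval or floor is given.

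The members and lists were chosen with earlier results of these data known. From each gene list other than the cell type markers, the text names the genes called by either test and otherwise the gene with the highest control level, and it names the 5 genes most like Sgk1. Dusp1, Sgk3 and Mapkap1 were named outside this rule, with their values in view. Coordinates of start windows are from RefSeq on GRCm38.p6. Alternatives were a pseudocount of 0.1, a minimum mean of 1 FPKM, median scaling, quantile normalisation, array weights, a replicate block, the deposited FDR and leaving out each library.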

Additional observations from a re-analysis of the deposited data

How the results depend on the processing

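Over 25 gene comparisons and 350 alternative values, 11 differences changed sign, in 7 comparisons whose main size was at most 0.13. Sgk1 with siGSK3b and with L803mts carries no test, and apart from these 0 limma adjusted p-values reached 0.05. Of the genes other than Sgk1, Ddit4 with L803mts passed by the authors' deposited FDR (1 gene against 0 by limma). The number of loci called in the whole table was 1 with siGSK3b, 0 with L803mts and 2 with ketamine by limma, and 83, 111 and 77 by the authors' deposited FDR. With siGSK3b it was 2 after median scaling and 2 with array weights. The cause was not tested. Leaving out 1 library gave 0 to 36 loci with siGSK3b and 0 to 36 with L803mts, 36 without control replicate 1 in both, and 1 to 13 with ketamine, 13 without control replicate 2. The set was picked on the Sgk1 values with siGSK3b and L803mts, and Cdkn1a was listed only where its treated group is high. Leaving out 1 library moved 21 of the 25 differences by over 1.5 times or past 0, all but Sgk1 with siGSK3b and Sgk1, Ddit4 and Cdkn1a with L803mts. Of those with a size over 0.25, Ddit4 with siGSK3b was 0.20 to 0.63 (lowest without siGSK3b replicate 2), Zbtb16 with L803mts 0.11 to 0.68 (lowest without L803mts replicate 3), Sgk1 with ketamine 0.08 to 0.46 and Fkbp5 with ketamine 0.10 to 0.49 (both lowest without ketamine replicate 3 and highest without replicate 1), Zbtb16 with ketamine 0.13 to 0.56 (lowest without control replicate 1) and Tsc22d3 with ketamine 0.21 to 0.40 (lowest without control replicate 3). Read depth is unknown, so it could not be weighed for low genes such as Cdkn1a.

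With the replicate number as a block, limma called 2 loci with siGSK3b and 1 with ketamine. It called 0 of the receptor and response genes in each comparison, with Sgk1 not counted for siGSK3b and L803mts. Correlations of same-numbered libraries ran from −0.16 to 0.01 with siGSK3b, 0.01 to 0.19 with L803mts and 0.04 to 0.14 with ketamine, so the pairing of the libraries is not established.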
